A study of Mus musculus with 6 samples.

Results

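Genes of enteric neurons and glia were followed in RNA from the neck region of the gastric corpus of wild-type and Cldn18 knockout mice. The set holds 29 genes, chosen by symbol from known neuron, neural crest and glia genes, out of 38720 rows in the table of normalized counts. All 29 were in the table. The neck is the part of the gastric gland between its isthmus and its base, and claudin 18 seals the tight junctions of gastric epithelial cells. Frozen, unfixed stomach was sectioned, the neck was cut out with a laser, and the RNA was sequenced. The comparison has 3 wild-type libraries (CLDN18+/+) and 3 knockout libraries (CLDN18-/-), all from mice of the strain B6:129S5, with no treatment named. The sample labels give an age of 7 weeks and the description of the series 7 days, so the age of the mice is uncertain. How many animals a library holds and which part of Cldn18 was deleted was not given in the sources used here. No label states that each library is a separate animal, so the p-values cover the spread among these 6 samples, and part or all of that spread may be technical.

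The enteric nervous system consists of neurons and glia that descend from the neural crest, and its ganglia lie in the muscle layer and the submucosa of the gut. Its nerve fibres, with glia around them, run between the gastric glands. Crest cells need the receptor Ret and the transcription factors Sox10, Foxd3 and Hand2 to reach the gut and form this system, and GDNF family ligands act on Ret through coreceptors named Gfra. Most neuronal cell bodies lie outside the mucosa, so its nerves consist largely of axons and glia. Several of the genes are also active outside the nervous system, as Snap25 and Uchl1 are in endocrine cells.

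Each library had between 37673283 and 52842813 reads assigned to genes. A single read was worth 0.739 to 1.23 normalized counts, the authors' unit of reads divided by a size factor. The locus Gm26924 took 38.6% to 45.4% of reads. Mitochondrial transcripts took 3.28% to 4.28% of reads in wild-type and 1.25% to 1.56% in the knockout. The targeted gene, Cldn18, had 21210.1 to 30498 normalized counts in wild-type libraries against 13035 to 16798 in knockout libraries, so it was lower but still read in the knockout. The spread of the wild-type group was uneven. Wild-type library 2, and less so library 3, carried some genes at several times their level in library 1. For the neuron and glia genes with this spread, values without those libraries are also given.

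Most of the genes were rare in this region, and those that were called were all lower in the knockout. A gene was tested with limma when at least 3 of the 6 libraries reached 10 normalized counts, and it was called at an adjusted p under 0.05 over 17432 genes. Of the 29 genes, 22 passed that filter and 7 were too low to judge. Among the 22, 8 were lower, 0 were higher and 14 were not called, while 9 had an unadjusted p under 0.05. Over all genes tested the same rule called 21.5% lower and 23.3% higher, so 36.4% of the tested members stood against 21.5%. The 8 lower genes were Tubb3, Elavl3, Uchl1, Gfra3, Sox10, Foxd3, Cdh19 and S100b. Of these, Gfra3, Foxd3 and Cdh19 passed the filter through the wild-type libraries alone and had to differ. Of the other 19 members 5 were lower (26.3%), against 19.9% of all genes tested that did not pass through 1 group alone. Libraries of the groups did not overlap in 7 tested members with the knockout below (27.1% of all genes tested) and in 2 with the knockout above (28.1%), of 55.2% in either direction. The 7 include Gfra3, Foxd3 and Cdh19, whose groups could not overlap, given how they passed the filter. The median log2 difference, knockout minus wild-type, was -0.50 over the 22 members and -0.02 over all genes. The median of the members includes Gfra3, Foxd3 and Cdh19, so the filter itself lowered it. The authors' deposited table, which rests on another test, called 2 of the 29 lower, Uchl1 (adjusted p = 0.0129) and Foxd3 (adjusted p = 0.000807). Without wild-type library 2, or without library 3, limma called 5 lower. Without both it called 1 lower, Tubb3, and 1 higher, Hand2. In bulk RNA of this kind, fewer cells of a type and less RNA per cell cannot be told apart.

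**Figure D1:**
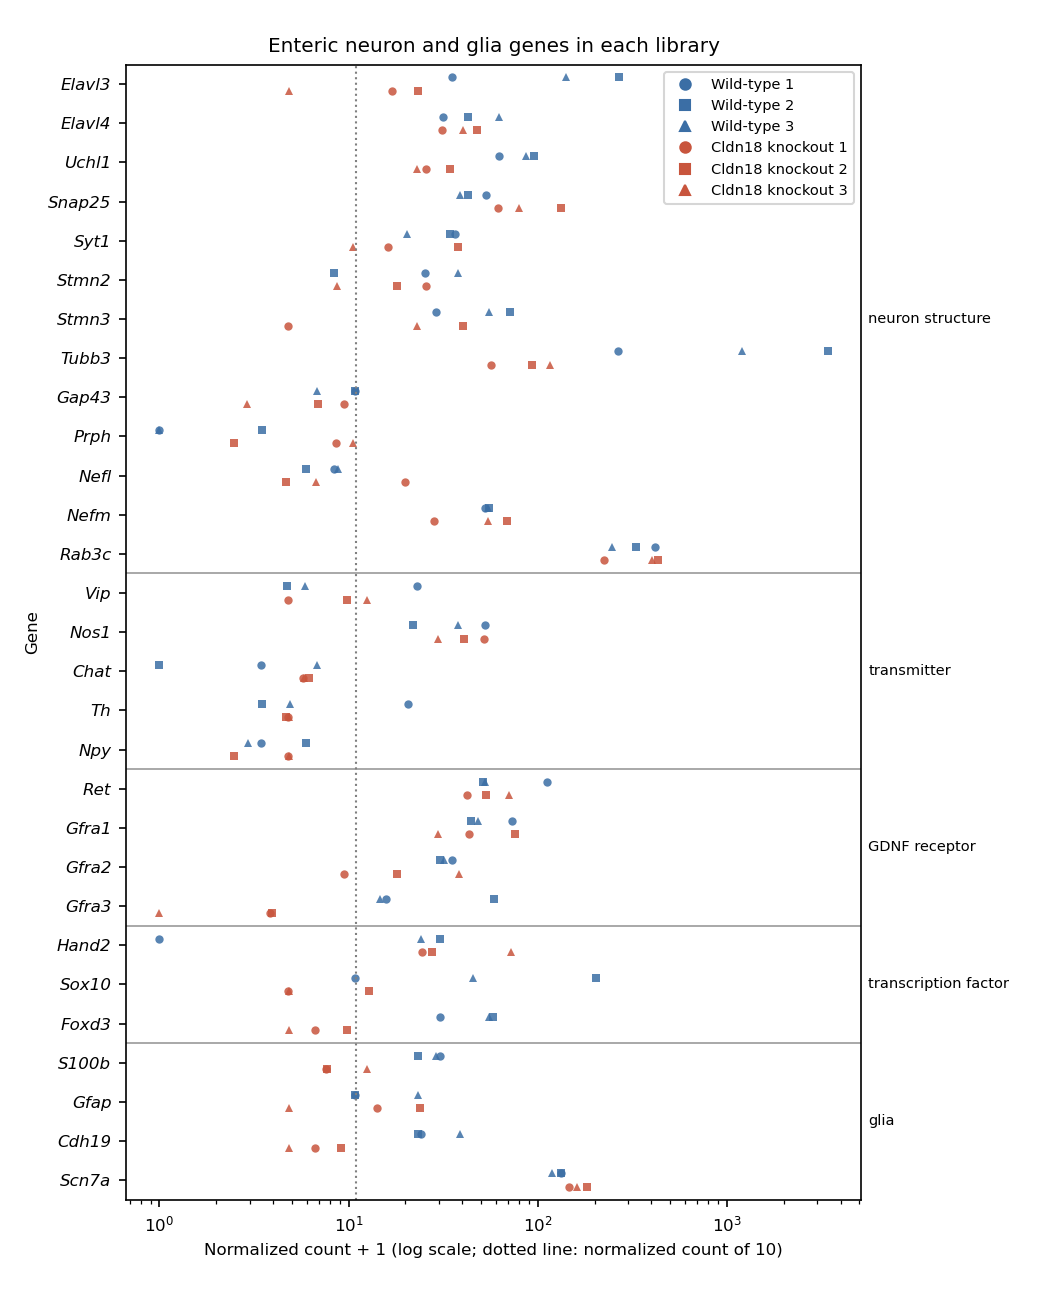
Normalized count + 1 (log axis) of the 29 genes, 1 row per gene and 1 point per library, wild-type and knockout in separate colours, with the filter level of 10 as a dotted line. Tubb3 spans 264 to 3413 in wild-type libraries against 55.7 to 115 in knockout libraries, while Prph, Chat and Npy stay below the line in all 6 libraries.

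The promoters are shown here for the 8 lower genes, a group formed by the call itself. Whether these genes share any control was not tested. Of the 8, 5 had an entry in the RefSeq promoter table (GRCm38.p6), which holds 19 of the 29 members. Each is printed 5′ to 3′ on the strand of the gene, from 250 bases before the RefSeq start site and cut where the GENCODE gene begins. Elavl3 is at chr9:22052024-22052273 (minus strand), Uchl1 at chr5:66675871-66676090 (plus), Tubb3 at chr8:123411303-123411423 (plus), S100b at chr10:76253586-76253835 (plus) and Foxd3 at chr4:99656049-99656298 (plus). Capitals mark matches, on either strand, to CANNTG, the E-box that Hand2 and other basic helix-loop-helix factors bind, and to ACAAAG or ACAATG, the core letters bound by Sox factors.
Tubb3: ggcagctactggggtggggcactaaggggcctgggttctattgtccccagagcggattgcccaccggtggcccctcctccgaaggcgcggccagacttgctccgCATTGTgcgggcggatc
Elavl3: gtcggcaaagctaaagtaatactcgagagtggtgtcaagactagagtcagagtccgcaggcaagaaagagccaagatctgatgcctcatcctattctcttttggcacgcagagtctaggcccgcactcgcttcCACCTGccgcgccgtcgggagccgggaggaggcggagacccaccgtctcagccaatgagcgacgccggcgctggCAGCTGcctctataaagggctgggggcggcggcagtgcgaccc
Uchl1: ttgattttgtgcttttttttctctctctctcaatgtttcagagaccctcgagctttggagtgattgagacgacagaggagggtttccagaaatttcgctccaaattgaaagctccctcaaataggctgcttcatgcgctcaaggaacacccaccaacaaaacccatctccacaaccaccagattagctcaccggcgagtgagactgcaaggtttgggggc
Foxd3: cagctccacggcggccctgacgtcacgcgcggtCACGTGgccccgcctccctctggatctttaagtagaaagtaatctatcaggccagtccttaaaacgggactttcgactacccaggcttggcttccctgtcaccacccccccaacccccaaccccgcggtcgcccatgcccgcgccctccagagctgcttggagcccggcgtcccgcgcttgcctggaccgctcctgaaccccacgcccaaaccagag
S100b: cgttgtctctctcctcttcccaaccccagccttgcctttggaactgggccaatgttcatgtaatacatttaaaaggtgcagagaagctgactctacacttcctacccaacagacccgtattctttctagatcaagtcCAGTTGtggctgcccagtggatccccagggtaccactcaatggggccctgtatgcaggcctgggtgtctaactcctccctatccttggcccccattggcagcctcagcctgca
Elavl3 held 2 E-box matches, Foxd3 and S100b held 1 each, and Uchl1 held no match to any of the 3 motifs. Tubb3 held 1 match to ACAATG, on the opposite strand. Among 32544 promoters of the same table, 66.2% of 250-base windows held CANNTG, 16.5% ACAAAG and 10.5% ACAATG. In the 121-base window used for Tubb3 the shares were 42.1%, 8.48% and 5.32%, and in the 220-base window used for Uchl1 they were 62.2%, 14.8% and 9.56%. The matches are descriptions of letters, not sites of binding.

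Of the 13 genes of the neuronal cytoskeleton, axon growth and vesicles, 10 were tested. In the knockout 3 fell (30%), against 21.5% of all genes tested. Tubb3 encodes the class III beta-tubulin that is used to mark neurons (ENSMUSG00000062380.4, mm10 chromosome 8, 123411424 to 123422015, plus strand). Its normalized counts were 264, 3413 and 1199 in wild-type libraries against 55.7, 92.3 and 115 in knockout libraries. Wild-type library 2 was far above the other two, and even the lowest wild-type library was above every knockout library. The log2 difference was -3.60 ± 0.71 (SE, n = 3 and 3; limma adjusted p = 0.00213). With library 1 as the only wild-type library, which is then assumed to vary like the knockout group, it was -1.64 (limma adjusted p = 0.0256). The authors' deposited table gives Tubb3 an adjusted p of 0.148. Per kilobase of exon, the mean level of Tubb3 was 870.2 normalized counts in wild-type, the highest of the 29 genes, and 47.0 in the knockout. Its transcript shares stretches of at least 85% identity with Tubb2a, Tubb2b and Tubb6, so reads could be split among them. Tubb6 had 448, 2207 and 1033 normalized counts in wild-type libraries against 343 to 599 in knockout libraries, with library 2 again the highest.

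Elavl3, a neuronal RNA-binding protein of the Hu family (ENSMUSG00000003410.8, chromosome 9, 22015005 to 22052023, minus strand), followed the same order of wild-type libraries. It had 34.3, 269 and 141 normalized counts in wild-type libraries against 16.1, 22.2 and 3.84 in knockout libraries. The groups did not overlap, though wild-type library 1 was near the highest knockout library. The log2 difference was -3.15 ± 0.78 (SE, n = 3 and 3; limma adjusted p = 0.00753). Without wild-type libraries 2 and 3 it was -1.51 and no longer called (limma adjusted p = 0.273), and the authors' deposited table gives an adjusted p of 0.0983. Elavl4, its relative in the same family, had 30.6 to 61.2 normalized counts in wild-type libraries against 30.2 to 46.5 in knockout libraries, and was not called (log2 difference -0.16, 95% interval -1.09 to 0.76).

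Uchl1, the ubiquitin hydrolase known as PGP9.5 that is stained to show nerve fibres, differed without that spread (ENSMUSG00000029223.12, chromosome 5, 66676091 to 66687234, plus strand). Its normalized counts were 61.2, 95.1 and 85.4 in wild-type libraries against 24.6, 33.2 and 22.1 in knockout libraries. All 3 wild-type libraries were at least at 61.2 and no knockout library was above 33.2. The mean fell to 33.1% of the wild-type mean, with a log2 difference of -1.56 ± 0.38 (SE, n = 3 and 3; limma adjusted p = 0.00688). Uchl1 was lower when any single library was left out; with library 1 as the only wild-type library the log2 difference was -1.19 (limma adjusted p = 0.127). Its exons overlap those of the antisense gene Uchl1os over 295 bases, and the strandedness of the counting was not given in the sources used here.

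Snap25, Rab3c and Syt1, the 3 vesicle genes of the set, were not called. Snap25, a SNARE protein of vesicle fusion, had 52.6, 42.0 and 37.9 normalized counts in wild-type libraries against 60.4, 132 and 78.8 in knockout libraries. Every knockout library was above every wild-type library, but the difference missed the threshold (log2 difference 0.96, 95% interval 0.11 to 1.80; limma adjusted p = 0.0631). It was called higher by edgeR on the recovered reads (adjusted p = 0.0499) and after quantile normalization (limma adjusted p = 0.0162). Rab3c, a small GTPase of secretory vesicles, had 417, 332 and 247 normalized counts in wild-type libraries against 224, 432 and 404 in knockout libraries, with overlapping groups (log2 difference 0.06, 95% interval -0.57 to 0.69). Per kilobase of exon, Rab3c was at 27.6 normalized counts in wild-type and 29.3 in the knockout, among the higher levels of the set in both groups. Syt1, the calcium sensor of vesicle release, had 19.4 to 35.5 normalized counts in wild-type libraries against 9.61 to 36.9 in knockout libraries and was not called (95% interval of the log2 difference -1.96 to 0.64).

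Snap25 ran beside an endocrine marker. Chga, chromogranin A of endocrine granules, had 7021, 5998 and 3324 normalized counts in wild-type libraries against 7501, 13780 and 11558 in knockout libraries, and the 6 libraries ranked in the same order for Snap25 and Chga. That pair was noticed after the values were seen, and its 6 points share their libraries. Chga rose by a log2 difference of 1.03 ± 0.29 (SE; limma adjusted p = 0.0142). Of 19 enteroendocrine markers tested, 7 rose (36.8%) and 2 fell (10.5%), against 23.3% and 21.5% of all genes tested. Their summed level was 23945 to 37378 normalized counts in wild-type libraries against 37941 to 46705 in knockout libraries. Ghrl, ghrelin of the gastric X/A-like cells, had 12182 to 18461 normalized counts in wild-type libraries against 21469 to 23997 in knockout libraries and rose, while Sst, somatostatin of D cells, had 5888 to 8417 against 2075 to 2876 and fell (log2 difference -1.64 ± 0.18, SE; limma adjusted p = 5.59e-05). Pcsk1n, a granule protein, was the other that fell, with 118 to 249 against 62.1 to 81.2. Gast, gastrin, was among the 7 that rose but passed the filter through the knockout libraries alone, so it had to differ. The count of 7 was 3 to 8 when single libraries were left out, with 4 without wild-type library 3 and 3 without knockout library 2. The part of endocrine cells in the Snap25 and Uchl1 values was not tested.

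The other cytoskeletal genes of neurons were low, and none of them was called. Stmn3, a stathmin that regulates microtubules, had 28.2, 70.4 and 54.4 normalized counts in wild-type libraries against 3.78, 39.2 and 22.1 in knockout libraries, with overlapping groups (log2 difference -1.57, 95% interval -3.22 to 0.09; limma adjusted p = 0.114). It was called lower without knockout library 2 (log2 difference -2.21, limma adjusted p = 0.0471). Stmn2, another stathmin, had 7.41 to 36.9 normalized counts in wild-type libraries against 7.69 to 24.6 in knockout libraries. Nefm, the medium neurofilament subunit, had 51.4 to 54.3 and 27.4 to 68.0, and its exons overlap those of Nefl over 1108 bases. Gap43, a protein of growing axons, had 5.83 to 9.88 normalized counts in wild-type libraries against 1.92 to 8.50 in knockout libraries, which is too low to judge. Prph, the peripheral neuron filament peripherin, had 0, 2.47 and 0 in wild-type libraries against 7.56, 1.48 and 9.61 in knockout libraries, at most 10 reads in any library. Nefl, the light neurofilament subunit, had 4.94 to 7.77 in wild-type libraries against 3.69 to 18.9 in knockout libraries. These 3 were not tested.

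Of the 5 genes that set the transmitter of an enteric neuron, only Nos1 was high enough to be tested. Nos1, which makes the inhibitory transmitter nitric oxide, had 51.4, 21.0 and 36.9 normalized counts in wild-type libraries against 51.0, 39.9 and 28.8 in knockout libraries, and the groups overlapped (log2 difference 0.18, 95% interval -0.84 to 1.20). Chat, the enzyme that makes acetylcholine, had 2.45, 0 and 5.83 in wild-type libraries against 4.72, 5.17 and 4.81 in knockout libraries. A count of 3 reads, the most that a count of 0 allows, corresponds to 2.22 to 3.70 normalized counts here. Vip, a relaxing neuropeptide, had 22.0, 3.70 and 4.86 in wild-type libraries against 3.78, 8.87 and 11.5 in knockout libraries. Th, the first enzyme of catecholamine synthesis, had 19.6, 2.47 and 3.88 in wild-type libraries against 3.78, 3.69 and 3.84 in knockout libraries. For both Vip and Th the highest value was in wild-type library 1 alone. Npy, neuropeptide Y, had 1.94 to 4.94 and 1.48 to 3.84. A difference in Chat, Vip, Th or Npy was not detectable at this depth. Phox2a, a transcription factor that defines autonomic neurons, was likewise at 0 to 2.47 normalized counts in wild-type libraries against 0 to 2.96 in knockout libraries. Chat, Vip, Th, Npy and Phox2a were thus mostly at or close to 0, and the name of the set describes its genes rather than a cell type shown to be present.

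**Figure D2:**
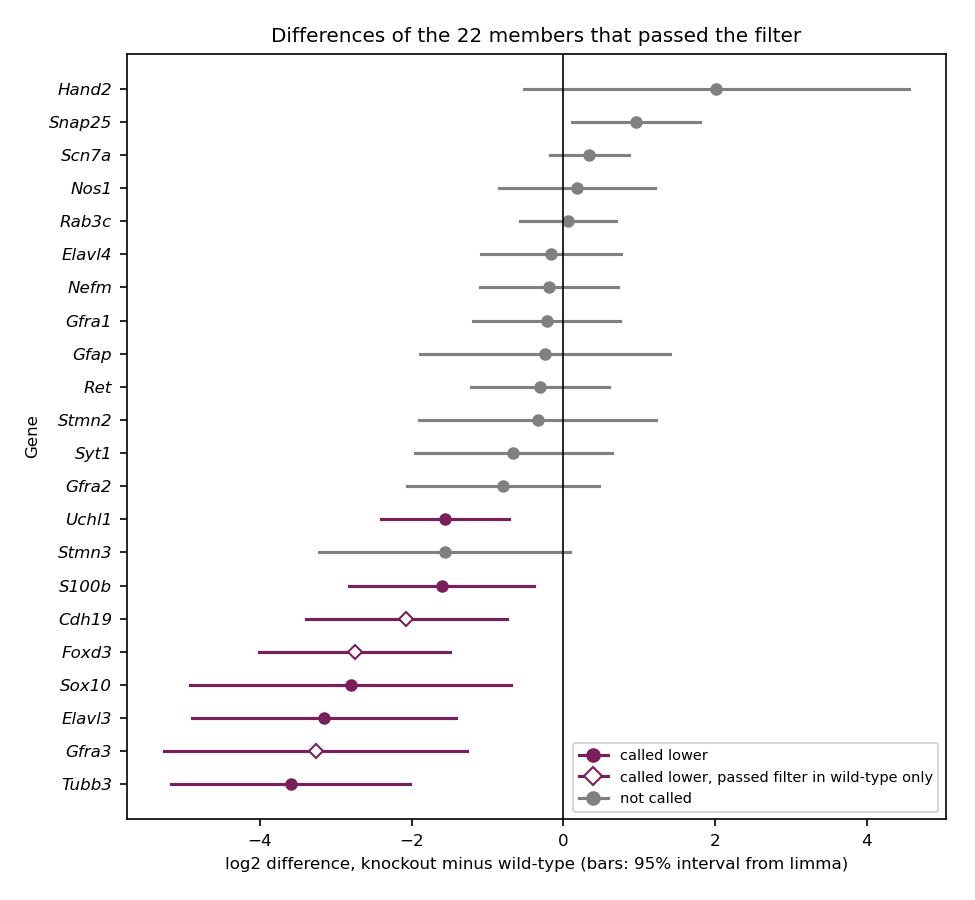
Log2 difference, knockout minus wild-type, of the 22 tested genes, with points as limma estimates, bars as their 95% intervals, and open diamonds for genes that passed the filter in wild-type libraries alone. The 8 called genes lie between -3.60 and -1.56, and the intervals of the others reach 0 or, for Snap25, 0.11 to 1.80.

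Among the 4 GDNF family receptors only Gfra3 was called lower (25%), against 21.5% of all genes tested. Ret, the signalling receptor, had 111, 50.6 and 51.5 normalized counts in wild-type libraries against 41.6, 52.5 and 69.2 in knockout libraries. Its groups overlapped, and the high value was that of wild-type library 1 (log2 difference -0.31, 95% interval -1.22 to 0.60; limma adjusted p = 0.571). Gfra1, the coreceptor of GDNF, had 43.2 to 72.2 in wild-type libraries against 28.8 to 75.4 in knockout libraries (95% interval of the log2 difference -1.19 to 0.75). Gfra2, the coreceptor of neurturin, had 34.3, 29.6 and 31.1 in wild-type libraries against 8.50, 17.0 and 37.5 in knockout libraries (log2 difference -0.80, 95% interval -2.07 to 0.47). Both groups overlapped, and knockout library 3 held the highest Gfra2 value of all 6.

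Gfra3, the coreceptor of artemin (ENSMUSG00000024366.8, chromosome 18, 34689898 to 34720387, minus strand), had 14.7, 58.0 and 13.6 normalized counts in wild-type libraries against 2.83, 2.96 and 0 in knockout libraries. These values rest on 73 reads over the wild-type libraries and 7 over the knockout libraries. All knockout libraries were below all wild-type libraries. Gfra3 passed the filter through the wild-type libraries alone, so its groups had to differ. Library 2 carried most of the wild-type signal. The log2 difference was -3.27 ± 0.90 (SE, n = 3 and 3; limma adjusted p = 0.0131), and without wild-type library 2 it was -2.61 and not called (limma adjusted p = 0.0736). With 3, 4 and 0 reads in the knockout libraries, the size of the fitted difference depends on the pseudocount of 1.

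The ligands of these receptors differed from one another. Nrtn, neurturin, had 523, 473 and 385 normalized counts in wild-type libraries against 54.8, 47.3 and 44.2 in knockout libraries, a mean level of 10.6% of wild-type. The groups were far apart, and the log2 difference was -3.21 ± 0.24 (SE, n = 3 and 3; limma adjusted p = 4.73e-06). Artn, artemin, had 52.6, 12.3 and 19.4 in wild-type libraries against 61.4, 59.1 and 82.7 in knockout libraries and rose (log2 difference 1.47 ± 0.53, SE; limma adjusted p = 0.0418). That call was lost without any single library other than wild-type 1, with adjusted p from 0.0824 to 0.135 and a log2 difference of 1.04 to 1.56. Gdnf had 12.3 to 19.4 normalized counts in wild-type libraries against 9.61 to 35.5 in knockout libraries and was not called (log2 difference 0.16, 95% interval -1.17 to 1.5). A list of neurotrophic, endothelin and guidance signals that are not members also holds the protease Ece1 and the transcription factor Zeb2. Of its 18 tested genes, 4 fell and 4 rose (22.2% each), against 21.5% and 23.3% of all genes tested. The median log2 difference was -0.04. The other 3 that fell were Ntf3, neurotrophin 3 (-2.24 ± 0.40, SE), Ednrb, the endothelin receptor of enteric crest cells (-1.32 ± 0.25), and Ntn1, the axon guidance cue netrin 1 (-1.20 ± 0.16). Ntf3 had 102, 76.6 and 125 normalized counts in wild-type libraries against 17.0, 29.6 and 16.3 in knockout libraries. Ednrb had 395, 335 and 269 against 119.9, 109 and 174. The others that rose were Gdf15, a stress-induced ligand that signals through Ret with its own coreceptor (3.24 ± 0.73), which passed the filter through the knockout libraries alone and had to differ, Ntf5, neurotrophin 4 (2.68 ± 0.52), and Bdnf, brain-derived neurotrophic factor (1.84 ± 0.38). Bdnf had 36.7, 25.9 and 34.0 normalized counts in wild-type libraries against 163, 75.4 and 128 in knockout libraries, and Ntf5 had 7.41 to 22.0 against 71.7 to 166. Ngfr, the low-affinity neurotrophin receptor of glia, was not called (log2 difference -0.56, 95% interval -1.86 to 0.73).

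**Figure D3:**
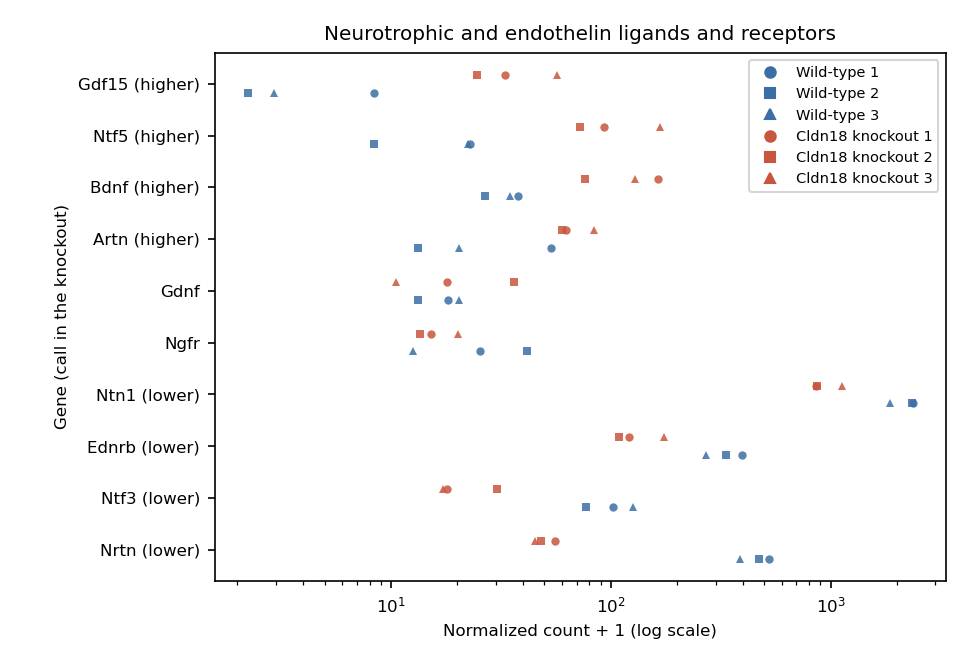
Normalized count + 1 (log axis) of the 10 ligands and receptors named here that are not members, 1 point per library, with the call in the knockout beside each gene name. Nrtn lies at 385 to 523 in wild-type libraries against 44.2 to 54.8 in knockout libraries, while Bdnf and Ntf5 lie higher in the knockout.

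Of the 3 neural crest transcription factors, Foxd3 and Sox10 fell and Hand2 was not called. Over all genes tested, 21.5% were lower. Foxd3 keeps crest cells in a progenitor state and is needed for the glial lineage (ENSMUSG00000067261.4, chromosome 4, 99656299 to 99658622, plus strand). It had 29.4, 56.8 and 54.4 normalized counts in wild-type libraries against 5.67, 8.87 and 3.84 in knockout libraries. The lowest wild-type library was well above the highest knockout library. The mean fell to 13.1% of wild-type (log2 difference -2.75 ± 0.57, SE, n = 3 and 3; limma adjusted p = 0.00274). Foxd3 was lower when any single library was left out, with the same genes kept in the fit. It passed the filter through the wild-type libraries alone, so its groups had to differ. With library 1 as the only wild-type library the log2 difference was -2.15 (limma adjusted p = 0.0922). Stretches of its transcript share at least 85% identity with Foxd1, Foxd2 and Foxd4, of which Foxd2 had 26.9, 51.9 and 21.4 normalized counts in wild-type libraries against 13.2, 19.2 and 7.69 in knockout libraries. The non-coding gene Gm23366 overlaps 89 bases of its exons.

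Sox10 maintains the progenitors and glia of the enteric nervous system (ENSMUSG00000033006.10, chromosome 15, 79154908 to 79165240, minus strand). Its normalized counts were 9.79, 203 and 44.7 in wild-type libraries against 3.78, 11.8 and 3.84 in knockout libraries. The groups overlapped, since knockout library 2 was above wild-type library 1, and library 2 held most of the wild-type signal. The log2 difference was -2.80 ± 0.95 (SE, n = 3 and 3; limma adjusted p = 0.0347). It was not called without wild-type library 2 (-1.74, limma adjusted p = 0.137), without wild-type library 3 (limma adjusted p = 0.0982), without knockout library 1 (0.098) or without knockout library 3 (0.0962). With library 1 as the only wild-type library it was -0.69 (limma adjusted p = 0.631). Sox9, with which Sox10 shares a stretch of at least 85% identity and which is active in gastric epithelium, had 4282, 10257 and 4739 normalized counts in wild-type libraries against 2046 to 2409 in knockout libraries. Reads of Sox9 assigned to Sox10 were not measured. Sox2, which is made by enteric progenitors and glia and also by gastric epithelium, had 416, 383 and 435 normalized counts in wild-type libraries against 961, 1232 and 910.2 in knockout libraries and rose (log2 difference 1.32 ± 0.17, SE).

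Hand2, needed for enteric neurons to mature, had 0, 29.6 and 23.3 normalized counts in wild-type libraries against 23.6, 26.6 and 71.1 in knockout libraries. The 0 was in wild-type library 1, library 3 was just below the lowest knockout library, and library 2 lay within the knockout range. Hand2 was not called (log2 difference 2.01, 95% interval -0.52 to 4.55; limma adjusted p = 0.181). It was called higher only when library 1 was the single wild-type library (log2 difference 5.19, limma adjusted p = 0.00332), a value that rests on that 0. The neighbouring transcript Hand2os1 overlaps 461 bases of its exons.

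Of the 4 glia genes, S100b and Cdh19 fell while Gfap and Scn7a were not called. Over all genes tested, 21.5% were lower. Cdh19, a cadherin of Schwann cell precursors and glia (ENSMUSG00000047216.8, chromosome 1, 110888326 to 110977584, minus strand), had 23.3, 22.2 and 37.9 normalized counts in wild-type libraries against 5.67, 8.13 and 3.84 in knockout libraries. Every wild-type library was above 22 and every knockout library under 10. Cdh19 passed the filter through the wild-type libraries alone, so its groups had to be apart. The log2 difference was -2.07 ± 0.60 (SE, n = 3 and 3; limma adjusted p = 0.0164), and without wild-type library 3 it was -1.83 and not called (limma adjusted p = 0.0707). S100b, the calcium-binding protein that marks enteric glia (ENSMUSG00000033208.7, chromosome 10, 76253853 to 76261159, plus strand), had 29.4, 22.2 and 28.2 in wild-type libraries against 6.61, 6.65 and 11.5 in knockout libraries. These groups did not overlap either. The mean of S100b was 31.1% of wild-type (log2 difference -1.61 ± 0.55, SE, n = 3 and 3; limma adjusted p = 0.0361). The call of S100b was lost without any single library other than knockout 3, with adjusted p from 0.0566 to 0.0991 and a log2 difference of -1.73 to -1.49. DESeq2 on the recovered reads and the authors' deposited table did not call it.

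Gfap, an intermediate filament of reactive glia, had 9.79, 9.88 and 22.3 normalized counts in wild-type libraries against 13.2, 22.9 and 3.84 in knockout libraries, and the groups overlapped (log2 difference -0.24, 95% interval -1.89 to 1.40). Scn7a, a sodium-sensing channel of glia, varied little, with 132, 132 and 117 in wild-type libraries against 145, 181 and 159.6 in knockout libraries. Every knockout library was above every wild-type library, and the difference was small and not called (log2 difference 0.34, 95% interval -0.18 to 0.86; limma adjusted p = 0.264). After quantile normalization Scn7a was called higher (limma adjusted p = 0.0433). The 4 glia genes summed to 186 to 206 normalized counts in wild-type libraries against 171 to 219 in knockout libraries, most of which was Scn7a.

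Other genes of glia and Schwann cells went both ways. Of 23 tested that are not members, 7 fell (30.4%) and 6 rose (26.1%), against 21.5% and 23.3% of all genes tested. The median log2 difference was -0.17. Art3, an ADP-ribosyltransferase family protein, had 211, 190.2 and 149.5 normalized counts in wild-type libraries against 12.3, 36.9 and 23.1 in knockout libraries. The groups were far apart, and Art3 fell (log2 difference -2.99 ± 0.42, SE, n = 3 and 3; limma adjusted p = 0.000267). Cadm4, an adhesion protein of myelinating glia, had 501, 983 and 614 in wild-type libraries against 159, 162 and 136 in knockout libraries (-2.14 ± 0.25, SE). Cryab, a small heat shock protein (-3.16 ± 0.40, SE, and -2.26 with library 1 as the only wild-type library), and Pmp22, a myelin protein also made by epithelia (-1.73 ± 0.36, SE), fell as well. Cadm4, Cryab and Pmp22 each had their highest value in wild-type library 2, and with library 1 as the only wild-type library the log2 difference of Pmp22 was -1.03 (limma adjusted p = 0.0286). The 6 that rose were Mal, Col28a1, L1cam, Apoe, Sox2 and Erbb3, with log2 differences of 1.19 to 1.87. Of these, Erbb3, the neuregulin receptor, was at 3193 to 3561 normalized counts in wild-type libraries against 6904 to 8312 in knockout libraries. Per kilobase of exon its wild-type mean was 564 normalized counts, against 17.9 for S100b and 17.3 for Scn7a. Erbb3 and Mal, a membrane raft protein, are also epithelial genes.

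**Figure D4:**
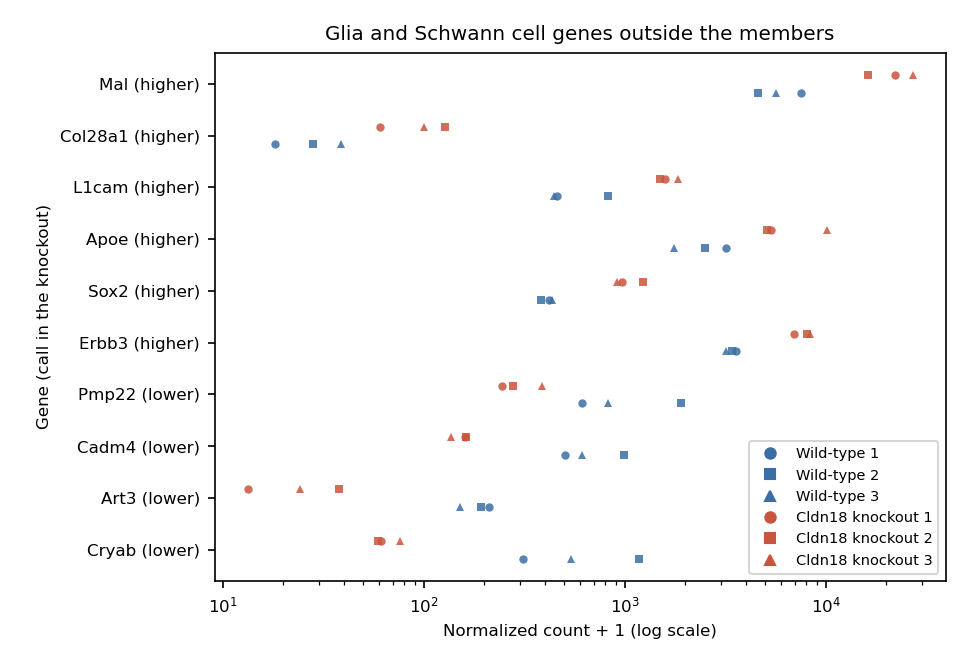
Normalized count + 1 (log axis) of 10 called glia and Schwann cell genes that are not members, 1 point per library, with the call in the knockout beside each gene name. For Art3 and Cadm4 all knockout points lie left of all wild-type points, and for Mal, Erbb3 and Sox2 they lie right of them.

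Other neuronal genes also went both ways. Of 32 tested that are not members, 4 fell and 4 rose (12.5% each), against 21.5% and 23.3% of all genes tested. The median log2 difference was 0.05. Syp, synaptophysin of synaptic and endocrine vesicles, had 518, 435 and 393 normalized counts in wild-type libraries against 104, 82.0 and 70.2 in knockout libraries (log2 difference -2.39 ± 0.24, SE; limma adjusted p = 2.76e-05). Penk, the enkephalin precursor, had 197, 147 and 97.1 in wild-type libraries against 13.2, 10.3 and 19.2 in knockout libraries (-3.26 ± 0.42, SE). Both fell without overlap and without a rise in wild-type library 2. Elavl2, a Hu protein like Elavl3, had 63.7, 536 and 218 in wild-type libraries against 13.2, 16.3 and 20.2 in knockout libraries (-3.51 ± 0.64, SE). With library 1 as the only wild-type library, Elavl2 was at -1.90 (limma adjusted p = 0.0443), and the authors' deposited table does not call it (adjusted p = 0.0904). Map2, a dendritic microtubule protein, had 293, 1173 and 546 against 171 to 231 (-1.47 ± 0.40, SE), and without wild-type library 2 its log2 difference was -0.96. Without wild-type libraries 2 and 3, Map2 was at -0.51 and not called (limma adjusted p = 0.197). Celf4, an RNA-binding protein of neurons, had 9.79, 11.1 and 44.7 in wild-type libraries against 288, 245 and 391 in knockout libraries (4.06 ± 0.52, SE). Thy1, a surface protein of neurons and of some immune and stromal cells, had 29.1 to 42.0 in wild-type libraries against 146 to 248 in knockout libraries (2.32 ± 0.33, SE). Ddc, which makes serotonin and dopamine in neurons and endocrine cells, rose by a log2 difference of 0.81. Dpysl3, an axon growth protein, rose by 0.79 with overlapping groups, a call lost without wild-type library 2 (adjusted p = 0.0568), wild-type library 3 (0.118), knockout library 2 (0.0679) or knockout library 3 (0.132).

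The lower members fell into 2 patterns across the wild-type libraries. In Tubb3, Elavl3 and Sox10 the level in library 2 was at least 3 times, and that in library 3 at least 1.5 times, the level in library 1. Uchl1, Foxd3, Gfra3, Cdh19 and S100b did not meet that rule. It was met by 7.72% of the 17432 genes tested and by 20.04% of all lower genes. High values in libraries 2 and 3 also raise the wild-type mean that a lower call rests on. The larger share among lower genes thus follows in part from the rule itself. Of the 14 squamous genes tested 5 were lower (35.7%), against 21.5% of all genes tested. Among those 5 lower genes of stratified squamous epithelium, which lines the forestomach of mice, 4 met the rule. Krt5, a keratin of its basal layer, had 220.3, 3219 and 1068 normalized counts in wild-type libraries against 51.9 to 76.5 in knockout libraries. Its wild-type libraries had the same order as those of Tubb3, and Krt14, Krt15 and Krt17 had that order too. The fifth lower gene, Krt6a, passed the filter through the wild-type libraries alone. Krt13, a keratin of the upper layers, met the rule with 39.2, 354 and 169.9 in wild-type libraries, but had 85.7 to 265 in knockout libraries and was not called (log2 difference 0.09, 95% interval -1.42 to 1.60). The list also had 2 genes that rose, Sfn and Ivl. Ivl, involucrin of the cornified envelope, had 0, 0 and 1.94 in wild-type libraries against 282, 308 and 405 in knockout libraries, and passed the filter through the latter alone. The 16 squamous genes summed to 1369, 10634 and 4306 normalized counts in wild-type libraries against 8299 to 13745 in knockout libraries, where Sfn, a stress-induced epithelial 14-3-3 protein, made up 7488 to 12780 of them. The part of such cells in the values of Tubb3, Elavl3 and Sox10 was not tested. With library 1 as the only wild-type library, the lower squamous genes numbered 3.

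**Figure D5:**
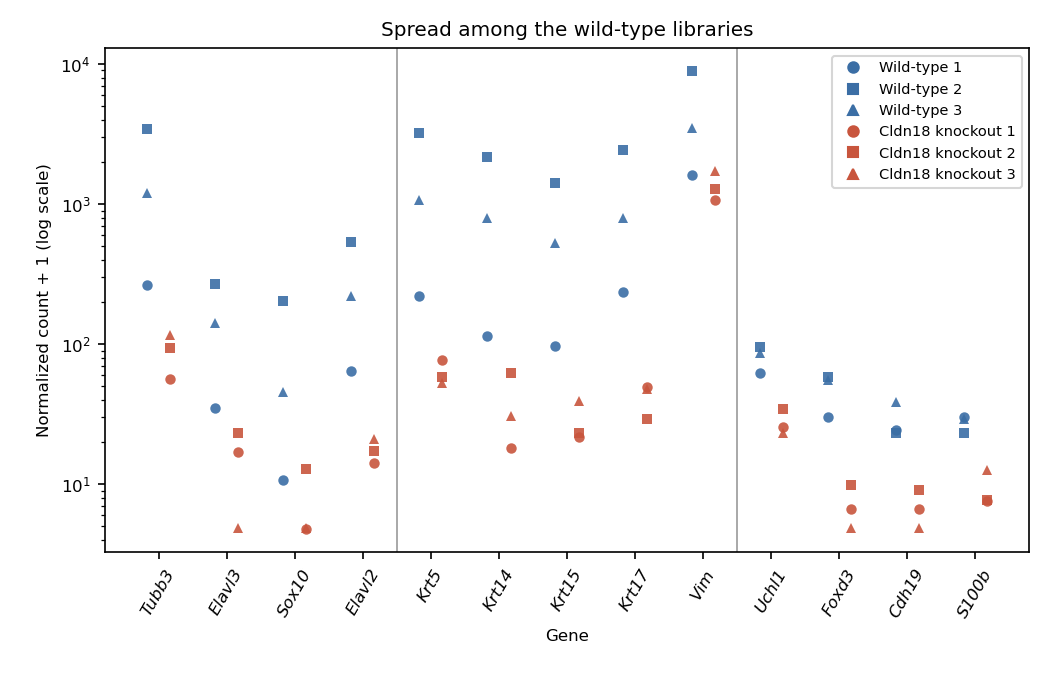
Normalized count + 1 (log axis) in each library for genes whose wild-type libraries differ by several fold (Tubb3, Elavl3, Sox10, Elavl2), for keratins and vimentin, and for neuron and glia genes without that spread. Krt5 runs 220.3, 3219 and 1068 and Tubb3 264, 3413 and 1199 in wild-type libraries 1, 2 and 3, while Uchl1 stays at 61.2 to 95.1.

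Markers of the other cells around the glands did not move as 1 group. Over all genes tested, 21.5% were lower and 23.3% higher. Of 12 endothelial markers, 10 fell and 0 rose, and their summed level was 10199 to 16425 normalized counts in wild-type libraries against 4364 to 5932 in knockout libraries. Plvap, of fenestrated capillaries, had 4833, 3796 and 2959 in wild-type libraries against 1078, 1203 and 1375 in knockout libraries, and Flt1, a receptor for vascular growth factor, had 1671 to 2627 against 690.0 to 952. Of 16 smooth muscle markers, 6 fell and 1 rose, with sums of 23765 to 36662 in wild-type libraries against 20671 to 26699 in knockout libraries. The 6 were 3 to 6 when single libraries were left out (3 without knockout library 1), and the 1 was 0 to 3 (3 without wild-type library 1, and 0 without wild-type library 3, knockout library 2 or knockout library 3). Acta2, smooth muscle actin, had 3579, 6404 and 3518 in wild-type libraries against 2415 to 2750.5 in knockout libraries, and Actn1, an actinin of many cells, was not called. Of 12 fibroblast markers, 2 fell and 3 rose, with overlapping sums of 36496 to 56887 and 38792 to 65881, and 0 fell without knockout library 1 or 2. Col3a1 and Sparc, the highest of them, were not called (log2 differences -0.16 and -0.09). Of 5 markers of the interstitial cells of Cajal, the pacemaker cells beside enteric nerves, 1 fell and 2 rose, with sums of 3743 to 5551 and 7597 to 9305. The one that fell was Kit, the receptor that defines these cells, with 2153, 1532 and 1540.0 normalized counts in wild-type libraries against 315, 285 and 210.5 in knockout libraries (log2 difference -2.68 ± 0.20, SE; limma adjusted p = 4.75e-06). Ano1, their chloride channel, which epithelia also make, had 1436 to 2427 in wild-type libraries against 4812 to 5867 in knockout libraries. None of these markers was at 0 in all 6 libraries. The sums of the endothelial, Cajal and enteroendocrine lists did not overlap between the groups, while the smooth muscle, squamous and fibroblast sums did. Capillaries and nerves lie together between the glands, and the part of a difference in the captured tissue in the lower values of Uchl1, Foxd3, Cdh19 and S100b was not tested.

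Summed over all 29 genes, the level was 1582, 5065 and 2474 normalized counts in wild-type libraries against 883, 1404 and 1220 in knockout libraries. Without Tubb3 the sums were 1317, 1652 and 1275 against 827, 1311 and 1104, so that knockout library 2 then overlapped the wild-type group. The 4 GDNF family receptors summed to 144 to 233 in wild-type libraries against 95.4 to 148 in knockout libraries, and the 5 transmitter genes to 32.1 to 97.9 and 52.9 to 67.1. Of the 29 members, 21 had a lower and 8 a higher mean in the knockout, with the 7 that were too low to judge included. Over all 38720 rows, 19153 had a lower and 14711 a higher mean.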

How the data were processed

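The study sequenced RNA of laser-captured gastric neck in 3 wild-type and 3 Cldn18 knockout libraries, grouped by the genotype in the sample labels. STAR, featureCounts, DESeq and mm10 are listed in the submitters' processing notes; their roles and versions, the annotation and the strandedness were not given in the sources used here. The authors deposited normalized counts, a signal of 0 or more, for 38720 rows; every value was a whole number of reads, within 0.05 reads, times 1 factor per library, which equalled a DESeq2 size factor. A second deposited table holds the authors' own comparison, with a ratio of means (fold change), p-values and adjusted p-values for 23086 genes, used only as an alternative.

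limma 3.58.1 (lmFit, eBayes with a mean trend, R 4.3.3) was run on the log2 of the normalized count plus 1. Two-sided p-values were adjusted by Benjamini-Hochberg over the 17432 genes that had at least 10 in at least 3 of 6 libraries. Differences on that scale understate those of low genes. Alternatives changed the pseudocount, filter, scaling, variance model, libraries and test, with edgeR 4.0.16 and DESeq2 1.42.0 on the recovered reads. The fits were tested on simulated data. In these data only genes with a mean of at least 50 scaled reads were changed, so changes in lower genes were not covered. Symbols were matched to GENCODE vM21 for coordinates and exon length, and blastn 2.17.0 gave similar transcripts (at least 85% identity over at least 150 bases).

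The members and gene lists were chosen with earlier results of these data known. Text names all 29 members, of each pathway list the called genes (up to 8 per direction) and a fixed set of markers, and of each other cell type the 2 highest genes; Phox2a, Kit, Sst, Pcsk1n, Gast, Ivl, Zeb2, further keratins and similar transcripts were named after their values were seen, and some genes under the rule are not reported here. Counting intervals are not given; the limit of 3 reads covers counting error only.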

Additional observations from a re-analysis of the deposited data

How the results depend on the processing

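A total of 21 alternatives were run. Most of them kept the genes of the main filter. Foxd3, Gfra3 and Cdh19 passed it through the wild-type libraries alone, so a call kept for these genes is no added support. Of the 8 lower members, Uchl1 and Foxd3 were called in every alternative that tested them except the one with library 1 as the only wild-type library, and Tubb3 in every one except the authors' deposited table. The number of members called lower, 8, was 5 to 8 when single libraries were left out, 3 with a mean of at least 50 (9 members tested), 2 in the authors' deposited table and 1 without wild-type libraries 2 and 3. The number called higher, 0, was 2 after quantile normalization, 1 with edgeR and 1 without wild-type libraries 2 and 3. Quantile normalization moved the median log2 difference of all genes from -0.02 to 0.10. Over all genes, 2488 were lower without wild-type libraries 2 and 3 and 2024 in the authors' deposited table, and 1957 were higher at a log2 difference of at least 1.

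In the further lists the number of lower other neuron genes was 2 in the authors' deposited table, and of higher ones 2 at a log2 difference of at least 1. The higher ligands and receptors numbered 2 with a mean of at least 50. For enteroendocrine markers the lower count was 1 without wild-type libraries 2 and 3, and the higher count was 3 to 8 when single libraries were left out, 4 with no mean trend and 3 without wild-type libraries 2 and 3. For smooth muscle the lower count was 3 to 6 when single libraries were left out, 3 with no mean trend, 1 in the authors' deposited table and 2 at a log2 difference of at least 1. Its higher count was 0 to 3 when single libraries were left out, 2 with upper quartile scaling, array weights or edgeR, and 0 with no mean trend, in the authors' deposited table or at a log2 difference of at least 1. For fibroblasts the lower count was 0 to 2 when single libraries were left out, 0 with no mean trend or in the authors' deposited table and 1 at a log2 difference of at least 1, and the higher count was 1 without wild-type libraries 2 and 3. The lower squamous genes numbered 3 without wild-type libraries 2 and 3 and 1 in the authors' deposited table. The cause of these shifts was not tested.

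Of the 50 genes run one by one (the tested members and the named genes of the pathway lists), none that was called reversed. Some that were not called did: after quantile normalization the log2 difference was 0.39 for Elavl4, 0.20 for Stmn2, 0.23 for Ret, 0.37 for Nefm, 0.40 for Gfap, 0.34 for Gfra1 and 0.10 for Ngfr. Without wild-type libraries 2 and 3 it was 0.31 for Elavl4, -0.39 for Nos1, 0.13 for Gfap and -0.30 for Rab3c. With single libraries left out it ran from -0.40 to 0.087 for Elavl4, -0.97 to 0.12 for Stmn2, -0.50 to 0.060 for Ret, -0.16 to 0.47 for Nos1, -0.45 to 0.19 for Nefm, -0.75 to 0.40 for Gfap, -0.58 to 0.094 for Gfra1, -0.13 to 0.36 for Rab3c and -0.30 to 0.59 for Gdnf.

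Libraries share replicate numbers across the groups, but same-numbered libraries did not deviate together (correlations of -0.0037, 0.0214 and -0.1729), so the numbers were not taken as pairs. With a replicate block 8 members were lower, with Stmn3 (limma adjusted p = 0.0399) in place of S100b (0.076). Depth limits the 7 genes under the filter, and the genes near 10 normalized counts.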
